A study of Mus musculus with 128 samples.

Results

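The genes for the proteins of the cytosolic ribosome were followed through mouse MII oocytes and cleaving embryos with and without maternal Kdm4a, a gene for a histone demethylase. Members were taken by their symbols: Rpl or Rps followed by a number and, where present, a closing a or x, plus Rplp0, Rplp1, Rplp2 and Rpsa. The rule found 76 genes of the 41300 in the deposited table, 46 for the large subunit, of which 3 form its stalk, and 30 for the small subunit. Each library was made from 1 oocyte or 1 embryo of C57BL/6 background with a SMART-Seq kit for polyadenylated RNA. The knockout groups carried no functional maternal or paternal Kdm4a allele (m-/p-). The groups labelled wildtype had the maternal allele and not the paternal one (m+/p-), since eggs of both genotypes were fertilised with sperm from Kdm4a knockout males. For the oocytes, which had no father's genome, the labels give the same terms. MII oocytes were unfertilised, and embryos were timed by the progress of control embryos: 2-cell embryos were taken at 1.5 days after fertilisation, 4-cell embryos at 2.5 days and 8-cell embryos at 3.5 days. The labels give 16 libraries for each stage and genotype, and 15 knockout 8-cell libraries were used because 1 held 419 counts in all. The labels name no mother or litter, so a p-value here reflects variation among single oocytes or embryos, some of which may share a mother.

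Most ribosomal proteins are present once in each ribosome, and cells keep their mRNAs under shared control: in mammals most of these mRNAs begin with a short run of pyrimidines (the 5′ terminal oligopyrimidine tract, TOP), through which the mTORC1 kinase and the RNA-binding protein LARP1 set their translation. A mouse oocyte stores ribosomes and mRNA during growth, and transcription is silent at the MII stage. The embryo restarts transcription at the 2-cell stage, while maternal mRNA is removed, and begins to build its own ribosomes.

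The 127 libraries held 528377 to 4657857 counts, and each level below is in CPM, a gene's counts scaled to the total of its library and so a share of the mRNA. A higher share of a gene and a lower share of other mRNAs, or fewer cells and less RNA per cell, cannot be told apart on this scale. Kdm4a itself averaged 1.27 ± 0.904 CPM in knockout MII oocytes, against 10.9 ± 3.05 CPM in wildtype ones, and 2.65 ± 1.83 CPM in knockout 2-cell embryos, against 15.1 ± 4.81 CPM in wildtype ones (SD, n = 16 each). In 8-cell embryos it averaged 1.99 ± 2.22 CPM in the knockout (n = 15) and 1.31 ± 1.16 CPM in the wildtype (n = 16), so the level no longer checked the labels there. The library labelled knockout 8-cell replicate 7 stood apart: 37 members were detected in it, they took 0.0317% of its counts, mitochondrially encoded genes took 18.9%, and the oocyte gene Bmp15 stood at 1735 CPM, against at most 8.27 CPM in the other knockout and 12.8 CPM in the wildtype 8-cell embryos. Of the members' counts in that library, 59.6% came from Rpl17 alone. Knockout MII replicate 15 also stood apart, with a member share of 0.0252% and 3.58% mitochondrial counts. All 10 oocyte markers were present in MII oocytes. The 12 cumulus and granulosa cell markers summed to a median of 101 CPM in knockout and 93.8 CPM in wildtype MII oocytes, nearly all from Cyp19a1, with 5 of the 12 at 0, and the median of the summed sperm markers was under 1 CPM in each group.

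Transcription start windows from RefSeq (build GRCm38.p6) were available for 56 of the 76 members. A pyrimidine run like that of TOP mRNAs, counted as a C within 10 bases of the annotated start followed by at least 4 bases that are C or T, was present in 34 of these, or 60.7%, against 34.3% of the other genes in the table. The letters CCGGAAG, the core bound by ETS family factors such as GABP, lay on either strand of the 300-base window in 41.1% of the members, against 9.86% of other genes. On the gene's own strand, CTTTCC was present in 41.1% of the members and 16.0% of other genes, and CTCTTTCC, which contains it, in 14.3% and 1.73%. AAGATGG, part of the site known for YY1, was found on either strand in 16.1% of the members and 7.26% of other genes, and, on the gene's strand, the TATA box letters TATAAA in 8.93% and 9.77%. These are matches of letters, and no binding was measured. The 40 bases before and the 20 bases from the annotated start are printed for 8 members that the comparisons below turn on, 5′ to 3′, with the pyrimidine run in capitals. Of these, 6 were picked to show the run and its place, and Rpl41 and Rpl23 to show windows without one. Rps13 and Rpl24, like Rpl41 and Rpl23 among the members called lower in knockout 2-cell embryos, have no such run either. The letters CCGGAAG lie in the 300-base windows of Rps6, Rpl38, Rpl39, Rpl6 and Rpl41, and not in those of Rps15a, Rps27 and Rpl23. In Rps15a and Rpl38 the run begins on the annotated start itself, while in Rpl39, Rps27 and Rpl6 it lies a few bases before it.
Rps15a (chr7:118116128-118116187, minus strand): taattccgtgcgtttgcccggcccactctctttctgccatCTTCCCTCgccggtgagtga
Rps6 (chr4:86857348-86857407, minus strand): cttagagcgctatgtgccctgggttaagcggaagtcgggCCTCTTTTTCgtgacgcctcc
Rps27 (chr3:90213629-90213688, minus strand): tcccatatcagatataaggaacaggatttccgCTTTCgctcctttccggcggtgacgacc
Rpl38 (chr11:114668540-114668599, plus strand): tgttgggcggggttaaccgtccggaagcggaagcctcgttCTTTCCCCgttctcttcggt
Rpl39 (chrX:37085203-37085262, minus strand): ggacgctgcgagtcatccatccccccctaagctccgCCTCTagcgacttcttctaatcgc
Rpl6 (chr5:121204461-121204520, plus strand): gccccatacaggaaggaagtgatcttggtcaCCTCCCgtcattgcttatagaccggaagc
Rpl41 (chr10:128549149-128549208, minus strand): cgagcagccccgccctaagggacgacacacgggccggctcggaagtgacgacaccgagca
Rpl23 (chr11:97782420-97782479, minus strand): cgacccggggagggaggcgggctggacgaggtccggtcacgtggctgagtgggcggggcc

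The members were scarce in the oocyte and took several percent of the counts in 4-cell and 8-cell embryos. In the knockout they took 0.0549% ± 0.0118 of all counts in MII oocytes, 0.177% ± 0.0247 in 2-cell, 2.81% ± 0.379 in 4-cell (SD, n = 16 each) and 3.76% ± 1.32 in 8-cell embryos (n = 15), or 4.02% ± 0.857 there without replicate 7 (n = 14). In the wildtype they took 0.0607% ± 0.0123 in MII oocytes, 0.215% ± 0.0695 in 2-cell, 3.21% ± 0.50 in 4-cell and 4.45% ± 0.456 in 8-cell embryos (n = 16 each). The mean wildtype share was 3.54-fold higher in 2-cell embryos than in oocytes, 14.9-fold higher in 4-cell than in 2-cell embryos and 1.39-fold higher in 8-cell than in 4-cell embryos. Shares of the 2 subunits moved together: large-subunit genes took 0.0285%, 0.123%, 1.82% and 2.62% of wildtype counts over the 4 stages, and small-subunit genes 0.0322%, 0.0915%, 1.39% and 1.83%. Mitochondrial ribosomal protein genes, 76 in number as well, covered a smaller range, with 0.186%, 0.242%, 0.614% and 0.724% of wildtype counts over the same stages.

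**Figure D1:**
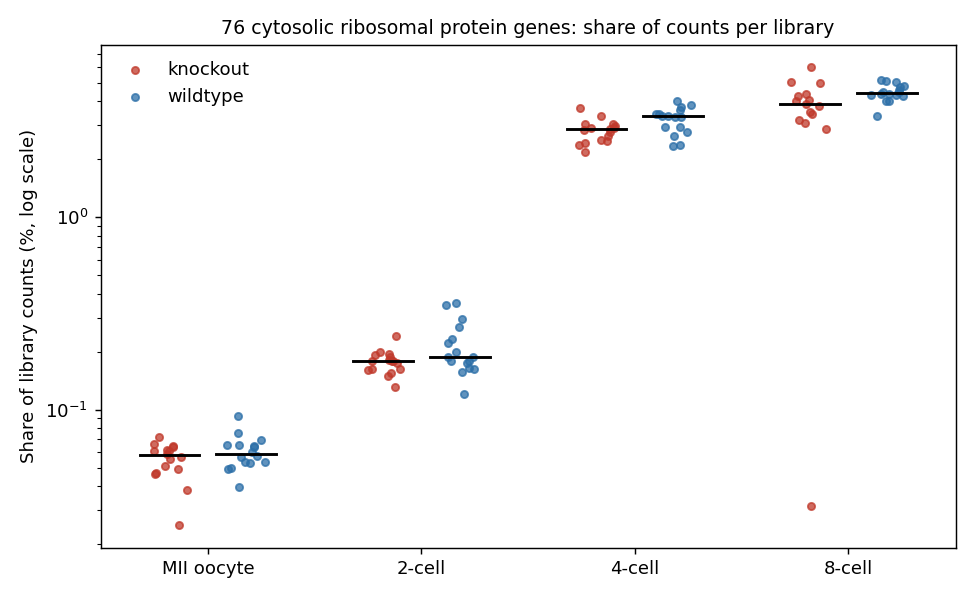
Share of each library's counts (%, log scale) held by the 76 cytosolic ribosomal protein genes, by stage, with knockout libraries left of wildtype ones. Each point is 1 oocyte or embryo and each bar is the median. Every 4-cell library lies above every 2-cell library, and knockout 8-cell replicate 7 lies at 0.0317%.

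Nearly all members took part in this rise. The group mean was higher at each later stage for 70 of 76 members in the knockout and 71 in the wildtype, and 73 members were highest in 8-cell embryos in both genotypes. The median member stood at 1.72, 12, 222 and 289.7 CPM from knockout MII oocytes through to 8-cell embryos, and at 1.98, 16.7, 263 and 378 CPM at the same stages in the wildtype. Between 2-cell and 4-cell embryos 74 of 75 members tested were called higher in the knockout (adjusted p under 0.05 and at least 1 on the log2 scale), with a median log2 fold change of 4.25, while 33.2% of all genes tested were called higher and 41.8% lower. In the wildtype all 75 were called higher, with a median of 3.77, against 31.3% of all genes higher and 43.4% lower and a median of -0.43 for all genes. A member can pass the filter through its level at the later stage alone, which favours a call of higher, and 60 of the 75 pass within 2-cell embryos by themselves. Of these 60, 59 were called higher in the knockout and 60 in the wildtype, against 23.3% and 21.8% of all genes that pass within 2-cell embryos. For 72 members every knockout 4-cell embryo exceeded every knockout 2-cell embryo (17% of all genes tested), and for 71 members this held in the wildtype (14.7%). These 2 counts are not restricted to the 60, and members that entered through their 4-cell level are favoured in them. From oocyte to 2-cell embryo 64 members passed the filter on low counts, of which 31 pass within oocytes by themselves. Among these 31, 21 were called higher and 1 lower in the knockout, with a median of 1.29, against 13.7% higher and 25.9% lower of all genes that pass within oocytes. In the wildtype 21 were called higher and 1 lower as well, with a median of 1.48, against 14.9% and 26.7%. Counted over all 64, 33 of which entered through their 2-cell level, 52 were called higher and 1 lower in the knockout, with a median of 2.10, against 29.9% higher and 19.5% lower among all genes. In the wildtype this was 53 higher and 1 lower, with a median of 2.45, against 31.3% and 20.1%. From 4-cell to 8-cell embryo 0 of 75 members were called higher in the knockout (8.1% of all genes higher, 3.88% lower) and 2 in the wildtype (9.33% higher, 11.3% lower), although 35 knockout and 46 wildtype members had an unadjusted p under 0.05 and the medians were 0.43 in the knockout and 0.51 in the wildtype. With no threshold on fold, edgeR called 18 members higher in the knockout and 29 in the wildtype over that last step, and DESeq2 with the threshold called 0 and 2. The shares of all genes above are for edgeR with the threshold. Those for these other fits are not given here, so the 18 and 29 cannot be set against a background.

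**Figure D2:**
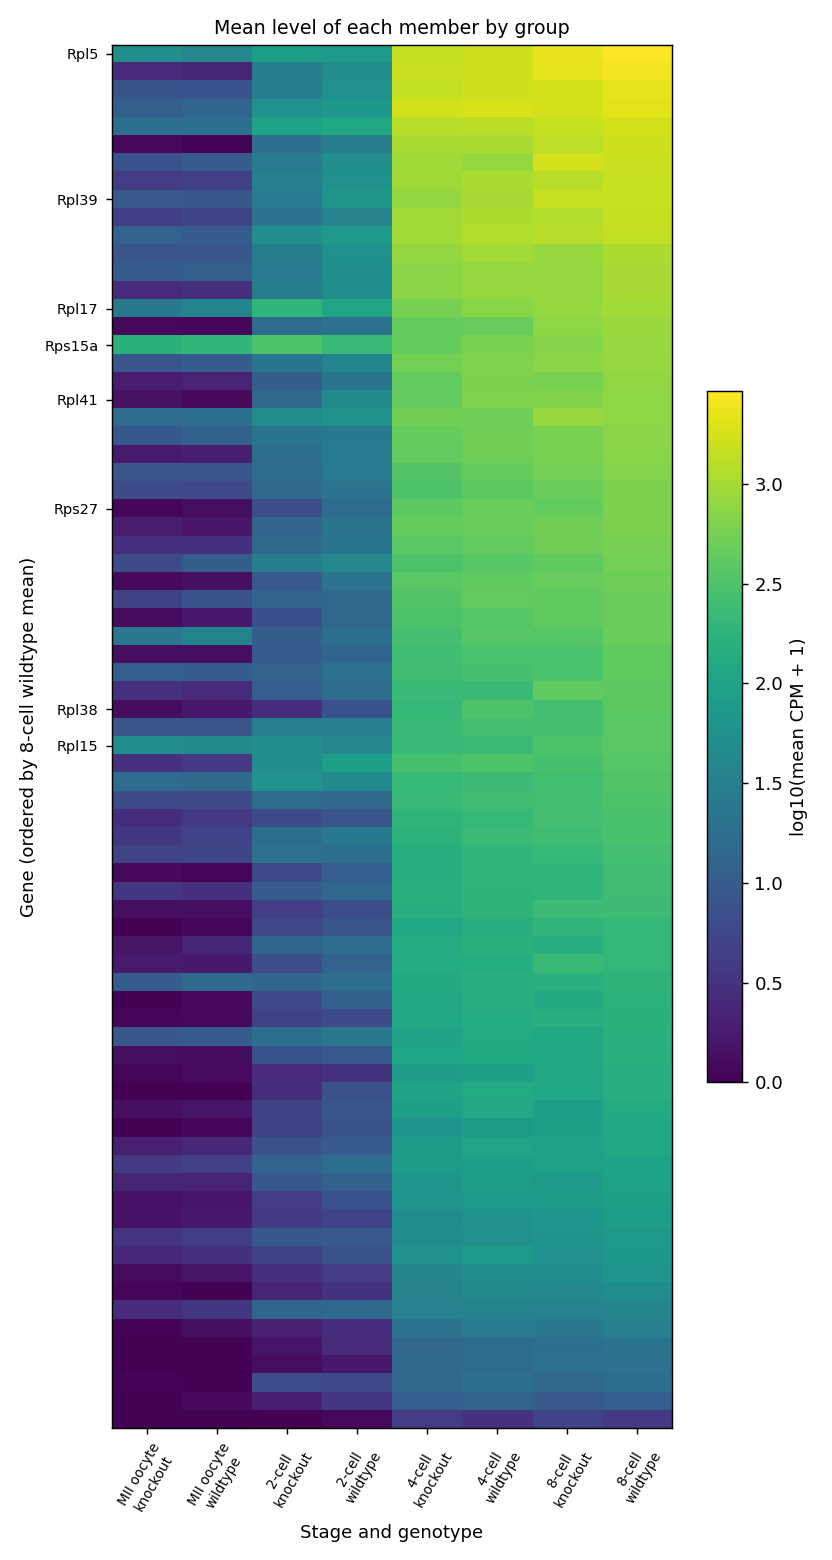
Mean level of each of the 76 members (rows, ordered by the 8-cell wildtype mean) in each stage and genotype, as log10 of mean CPM + 1, with 8 rows labelled. Most rows are dark in MII oocytes and bright from the 4-cell stage on, and Rps15a, Rpl15 and Rpl5 are the brightest rows in oocytes.

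The 4 largest increases from wildtype oocyte to 2-cell embryo belonged to genes that were close to undetected in the oocyte. They passed the filter only through their level in 2-cell embryos, so their values are a description, with no test. Rpl9, a protein at the base of the stalk, had 4 counts summed over the 16 wildtype oocytes and 27.6 ± 17.5 CPM in wildtype 2-cell embryos (log2 fold change 7.37 ± 0.45 (SE)). Rpl41, the smallest ribosomal protein, averaged 42.9 CPM in wildtype 2-cell embryos, against 0.207 CPM in oocytes (log2 fold change 6.90). Rpl3, which reaches the peptidyl transferase centre, averaged 19.0 and 0.122 CPM (6.41), and Rpl23a, a protein at the exit of the nascent chain, 9.74 and 0.109 CPM (5.47). With so few counts in the oocytes the sizes of these 4 changes are rough. At the next step Rpl38 led: the lowest, median and highest wildtype 4-cell embryos had 119, 324 and 432 CPM, against 0.939, 4.99 and 12.4 CPM in wildtype 2-cell embryos (log2 fold change 5.41 ± 0.24). The 2 ranges do not meet. Rpl38 and, below, Rps18 passed the filter through their 4-cell level, and no test is given for them. Rpl9 (5.10), Rps18 of the small subunit's head (5.07) and Rpl7 (4.82) followed on the log2 scale. At the last step Rpl3 averaged 894 ± 109.6 CPM in wildtype 8-cell embryos, against 453 ± 242 CPM in 4-cell embryos (log2 fold change 1.10 ± 0.32, adjusted p = 0.0052, from the quasi-likelihood test of edgeR, Benjamini-Hochberg adjusted, as for each adjusted p here), and the X-linked Rps4x 1541 ± 501 CPM, against 821 ± 291 CPM (log2 fold change 1.02 ± 0.25, adjusted p = 0.00096).

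The mix of members in the oocyte differed from that of the later embryo. Rps15a, a small-subunit protein, supplied 29.5% ± 8.36 of all member counts in knockout MII oocytes and 31.5% ± 2.24 in wildtype ones, and Rpl15 and Rpl5 came next in both. In 2-cell embryos Rps15a still led, with 18.1% ± 3.02 in the knockout and 11.4% ± 5.66 in the wildtype. In 8-cell embryos Rpl5 led with 6.18% in the knockout and 6.64% in the wildtype. Fam69a covers 46.6% of the Rpl5 exons on the opposite strand, and 92.9% of the Rpl5 values above 0 were not whole. The part of this in the level of Rpl5 was not tested. The order of the members by mean CPM was almost the same in wildtype 8-cell as in 4-cell embryos (Spearman's rho 0.994 over 76 members) and less so against oocytes (0.536). These are levels of the same genes, which share their length and mappability, and no test was made. Rps15a has a long exon model, 5395 bases in the deposited table, and per kilobase it ranked 55 of 76 over the 8 groups. As CPM per kilobase of exon, Rpl39 and Rpl7 were among the highest members over the 8 group means, at 1011 and 866, and Rpl18, Rpl36 and Rpl28 the lowest, at 2.65, 3.78 and 3.83. Rps19, a small-subunit protein mutated in Diamond-Blackfan anaemia in humans, had 0 counts in all 32 MII oocytes, which allows at most 0.0561 CPM over the knockout group and 0.0590 CPM over the wildtype group, taking 3 counts as the limit. This limit covers counting error only. It averaged 6.34, 129 and 147 CPM over the 3 wildtype embryo stages.

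The members picked by role also had low levels in oocytes and higher ones in 8-cell embryos. Of the stalk, through which translation factors are recruited, Rplp0 averaged 2.16, 49.4, 288 and 289 CPM over the 4 knockout stages and 2.82, 90.9, 328 and 355 CPM over the 4 wildtype stages. Its partners Rplp1 and Rplp2 averaged 31.1 and 37.4 CPM in wildtype 8-cell embryos, where per kilobase the 3 stood at 262, 62.3 and 35.6 CPM. Rpl5 and Rpl11, which carry the 5S ribosomal RNA into the large subunit and bind Mdm2 when free, averaged 39.8 and 4.83 CPM in wildtype oocytes and 2938 and 312 CPM in wildtype 8-cell embryos. Rpl10, which joins the large subunit late in its assembly, averaged 16.7 and 751 CPM at the same stages. Rps6, the substrate of the S6 kinases, averaged 4.15 and 1456 CPM, and Rps27a, made as a fusion with ubiquitin, 3.56 and 1492 CPM.

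In MII oocytes the genotypes differed in few members, and the share called did not stand above that of all genes once 1 library was left out. Of 31 members that passed the filter, 3 were called lower in the knockout and 0 higher, against 6.69% and 5.27% of all genes tested, and the median log2 fold change of the members was -0.15. Without knockout replicate 15, which stood apart, the same number was called lower and Rpl5 (0.47, adjusted p = 0.032) higher, against 9.79% and 9.8% of all genes, and the median was -0.07, against -0.15 with that library. The other 45 members had too few counts to be tested. Rps16, a small-subunit protein, had 0.596, 5.57 and 8.29 CPM in the lowest, median and highest knockout oocytes, against 3.77, 9.95 and 15.4 CPM in wildtype oocytes (log2 fold change -0.82 ± 0.20, adjusted p = 0.0062). 16 of 16 knockout oocytes lay below the wildtype median, and the ranges overlapped. Rpl17, which lines the exit tunnel, averaged 24.4 ± 9.03 CPM in knockout and 36.2 ± 7.60 CPM in wildtype oocytes (-0.56 ± 0.15, adjusted p = 0.0099). Rpl14 averaged 3.72 ± 1.69 CPM and 6.65 ± 2.79 CPM (-0.80 ± 0.22, adjusted p = 0.015). Rpl13a, next by p, missed the threshold (-0.54, adjusted p = 0.092), and 1 of its neighbours covers 54.9% of its exons on the same strand. Within replicates 1 to 8 alone 0 members were called, with 5 at an unadjusted p under 0.05, and limma voom with quality weights called 6. What share of all genes these fits called is not given here.

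In 2-cell embryos many members were lower without maternal Kdm4a, and a pair of them was higher. Of 60 members tested, 26 were called lower in the knockout and 2 higher, against 10% and 7.3% of all genes, and the median log2 fold change was -0.55, against -0.01 for all genes tested. A member can pass the filter through its wildtype level alone, which favours a call of lower. Among those called lower, Rps21 averaged 3.83 CPM in the knockout and 6.73 CPM in the wildtype. Rps27 averaged 5.86 and 15.1 CPM, and Rpl6 6.00 and 13.7 CPM. The calls of such low members, with their adjusted p below, are to be read with that limit. How many of the 26 passed through the wildtype alone was not counted. The group mean was lower in the knockout for 68 of all 76 members. With no filter on low counts 16 members were called lower and 2 higher, and the share of all genes called in that fit is not given here. Among small-subunit genes 15 of 25 tested were called lower, and among large-subunit genes 11 of 35, of which Rplp0 was the 1 stalk gene. No member separated the genotypes: the ranges overlapped for all 76.

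Of the large subunit, Rpl39, a short protein that lines the exit tunnel, had 14.5, 23.4 and 51.1 CPM in the lowest, median and highest knockout 2-cell embryos, against 22.0, 53.4 and 140.0 CPM in wildtype ones. All 16 knockout embryos lay below the wildtype median (log2 fold change -1.34 ± 0.23, adjusted p = 1.0e-04). For Rpl41 the values were 3.24, 11.6 and 40.1 CPM in the knockout and 3.39, 37.6 and 105 CPM in the wildtype (-1.63 ± 0.36, adjusted p = 0.0020), with 15 of 16 knockout embryos below the wildtype median. Rpl23, at a bridge between the subunits, averaged 25.0 ± 7.74 CPM and 52.3 ± 31.3 CPM (-1.01, adjusted p = 0.0031), Rpl30 28.0 ± 8.96 CPM and 52.8 ± 29.5 CPM (-0.87, adjusted p = 0.0066), and Rpl6 6.00 ± 2.38 CPM and 13.7 ± 10.1 CPM (-1.14, adjusted p = 0.0080). For each of these 5 genes the SD over knockout embryos was below that over wildtype embryos. A neighbour on the opposite strand covers 55.0% of the Rpl30 exons, and the sources used here do not say whether the counting used strand.

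Of the small subunit, Rps27, a zinc-finger protein, had 1.39, 5.36 and 13.2 CPM in the lowest, median and highest knockout 2-cell embryos, against 1.94, 9.90 and 41.0 CPM in wildtype ones (log2 fold change -1.34 ± 0.32, adjusted p = 0.0041). 14 of 16 knockout embryos lay below the wildtype median. Rps13 averaged 28.6 ± 8.53 CPM in knockout and 54.8 ± 28.2 CPM in wildtype embryos (-0.88, adjusted p = 0.0016), and Rps27a 30.0 ± 11 CPM and 53.9 ± 19.9 CPM (-0.80, adjusted p = 0.0027). Rps6 (-0.73, adjusted p = 0.039) and Rps4x (-0.91, adjusted p = 0.039) were also called lower, as was the stalk protein Rplp0 (-0.83, adjusted p = 0.019). Among the others called lower were Rps12, Rps16, Rps20, Rps21, Rps23, Rps24, Rps25, Rpl7, Rpl21, Rpl23a, Rpl24 and Rpl35a, with log2 fold changes of -1.19 (Rpl24) to -0.40 (Rps16). Another gene covers 71.5% of the Rpl24 exons on the same strand, and Tlcd1 covers 55.4% of the Rpl23a exons on the opposite strand. Rpsa, Rpl5, Rpl10, Rpl11 and Rpl22 were not called, with log2 fold changes of -0.38, 0.27, -0.31, 0.14 and -0.66.

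Rpl17 and Rps15a went the other way. Rpl17 had 132, 178 and 289.6 CPM in the lowest, median and highest knockout 2-cell embryos, against 72.7, 102 and 151 CPM in wildtype ones (log2 fold change 0.91 ± 0.11, adjusted p = 5.4e-07). All 16 knockout embryos lay above the wildtype median, with some overlap between the groups. Rps15a had 207, 313 and 392.2 CPM, against 130.2, 209.5 and 307 CPM (log2 fold change 0.60 ± 0.12, adjusted p = 0.0011), and 15 of 16 knockout embryos exceeded the wildtype median. Neither gene shares exons with another gene in the deposited table. However, 87.4% of the Rpl17 and 78.7% of the Rps15a values above 0 were not whole, against a median of 57.0% over the members. This was not particular to the pair: among members called lower it was 94.5% for Rpl23a, 88.2% for Rpl24 and 12.8% for Rps21. Reads of Rpl17 and Rps15a are thus likely shared with other loci, and the part of this in the result was not tested. Rpl17 held its call and direction under each alternative that set no threshold on fold, including replicates 1 to 8 (1.08) and 9 to 16 (0.69) on their own.

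**Figure D3:**
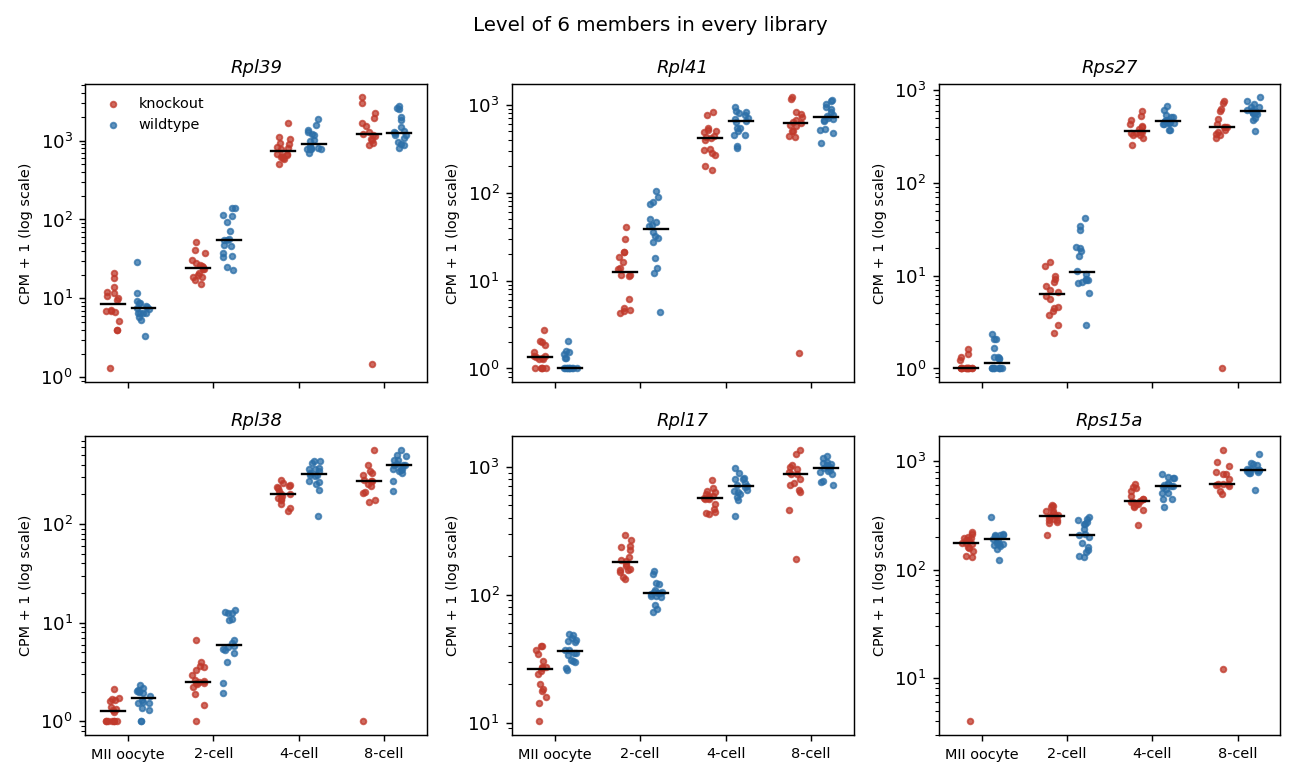
Level of 6 members (CPM + 1, log scale) in every library by stage, with knockout points left of wildtype points and a bar at each median. At the 2-cell stage knockout embryos sit low for Rpl39, Rpl41, Rps27 and Rpl38 and high for Rpl17 and Rps15a, and the single low 8-cell point is knockout replicate 7.

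The lower levels in knockout 2-cell embryos moved with other features of the embryos. The member share was 0.177% ± 0.0247 in the knockout and 0.215% ± 0.0695 in the wildtype, and 11 of 16 knockout embryos lay below the wildtype median. The 4 wildtype embryos with the highest shares, 0.270% to 0.357%, were also the 4 with the most genes detected after thinning each library to 100000 counts. Knockout embryos had 8391 ± 276 genes detected and wildtype embryos 8742 ± 435 (SD, n = 16 each). With genes detected as a covariate, a choice made after seeing the data, 1 member was called lower (Rpl39, -0.72, adjusted p = 0.0091) and 2 higher (Rpl17 and Rps15a). The 8 genes in the table from a list of 9 that mark 2-cell genome activation, such as Zscan4c and Zfp352, summed to 756, 1376 and 3697 CPM in the lowest, median and highest knockout embryos, against 1199, 2653 and 4800.3 CPM in the wildtype. The part of genes detected and of activation genes in the result was not tested further. Replicates 1 to 8 gave 16 members lower and 2 higher, replicates 9 to 16 gave 0 lower and 1 higher, where the members' median was -0.41 and 21 had an unadjusted p under 0.05, and without replicate 4 of both genotypes 15 were lower and 2 higher. Neither for these subsets nor for the covariate fit is the share of all genes called given here.

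**Figure D4:**
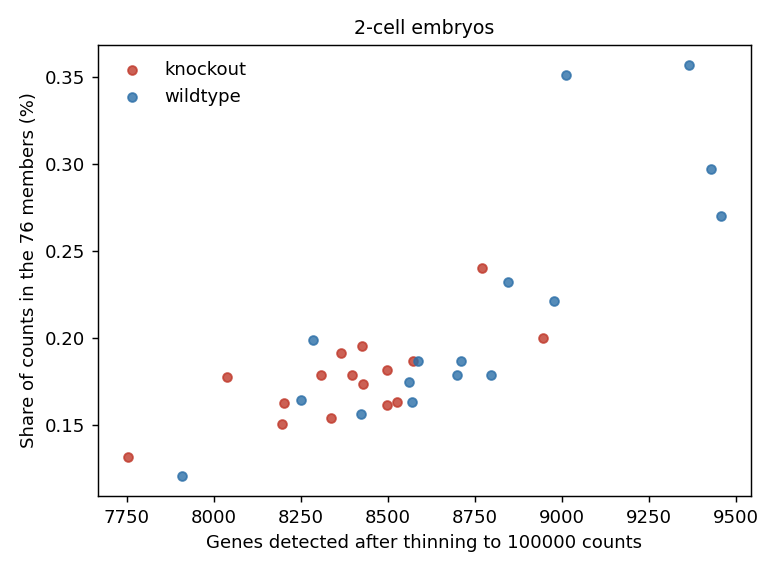
Share of counts held by the 76 members (%) against genes detected in 100000 counts drawn from each library, 1 point for each 2-cell embryo. The 4 wildtype embryos with the highest shares lie at the right, and the knockout embryos lie between 0.131% and 0.240%.

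In 4-cell embryos the members were lower in the knockout by a smaller step that most of them shared. Of 75 tested, 8 were called lower and 0 higher, against 7.46% and 8.97% of all genes, so the count lay near the background. The median log2 fold change was -0.25, against -0.0046 for all genes, and 71 of the 75 were negative. The group mean was lower in the knockout for 72 of all 76 members, and 14 of 16 knockout embryos had a member share below the wildtype median. Rpl38, whose loss alters translation of Hox mRNAs in mouse embryos, had 136, 201 and 279 CPM in the lowest, median and highest knockout embryos, against 119, 324 and 432 CPM in wildtype ones (log2 fold change -0.64 ± 0.14, adjusted p = 0.0017), with all 16 knockout embryos below the wildtype median. Rpl41 (-0.57), Rps26 near the mRNA exit (-0.45), Rps10 near the mRNA entry (-0.40), Rps15a (-0.39) and Rpl14 (-0.35) were also called lower, with adjusted p between 0.019 and 0.026. Rps15a, higher in the knockout at the 2-cell stage, averaged 445 ± 91.8 CPM in knockout and 584 ± 107 CPM in wildtype 4-cell embryos. The number of calls depended on the fit: in a single fit of all 8 groups 0 members were called at this stage, with 3 at an unadjusted p under 0.05, replicates 1 to 8 alone gave 0, and limma voom with quality weights gave 28, all lower. Shares of all genes called by these fits are not given here, so the counts cannot be set against a background.

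In 8-cell embryos the outcome depended on 1 library and on the fit. With all 15 knockout embryos 0 of 75 members were called by edgeR or DESeq2, with 1 and 10 at an unadjusted p under 0.05, while 2.76% of all genes were called lower and 8.69% higher. The median log2 fold change was -0.30 and 71 of 75 members were negative. On the same 15 embryos limma voom with quality weights called 12 members lower, and edgeR with genes detected as a covariate, a choice made after seeing the data, called 16 lower. For both fits the share of all genes called is not given here. Without knockout replicate 7, 12 were called lower and 0 higher, against 5.42% and 6.94% of all genes, and the median was -0.20. Among these were Rps3, Rps6, Rps13, Rps26, Rps27 and Rpsa of the small subunit and Rpl22, Rpl23a and Rpl38 of the large one. Rps3, at the mRNA entry, had 238, 323 and 431 CPM in the lowest, median and highest of the 14 remaining knockout embryos, against 276, 409.5 and 561 CPM in wildtype ones (log2 fold change -0.39 ± 0.10, adjusted p = 0.0089). 13 of 14 lay below the wildtype median, and the groups overlapped. For Rps26 the values were 62.6, 89.6 and 135 CPM in the knockout and 81.9, 126 and 237 CPM in the wildtype (-0.52, adjusted p = 0.015). With replicate 7 included, Rps26 gave -0.62 (adjusted p = 0.14), Rpl22 -0.46 (0.198), Rps28 -0.53 (0.21) and Rpl29 -0.51 (0.23), the 4 with the smallest p. The log2 fold changes of the 75 members at the 4-cell and the 8-cell stage, which share no library, had a Spearman's rho of 0.51, and those of the 60 members tested at both the 2-cell and the 4-cell stage 0.03, as a description.

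**Figure D5:**
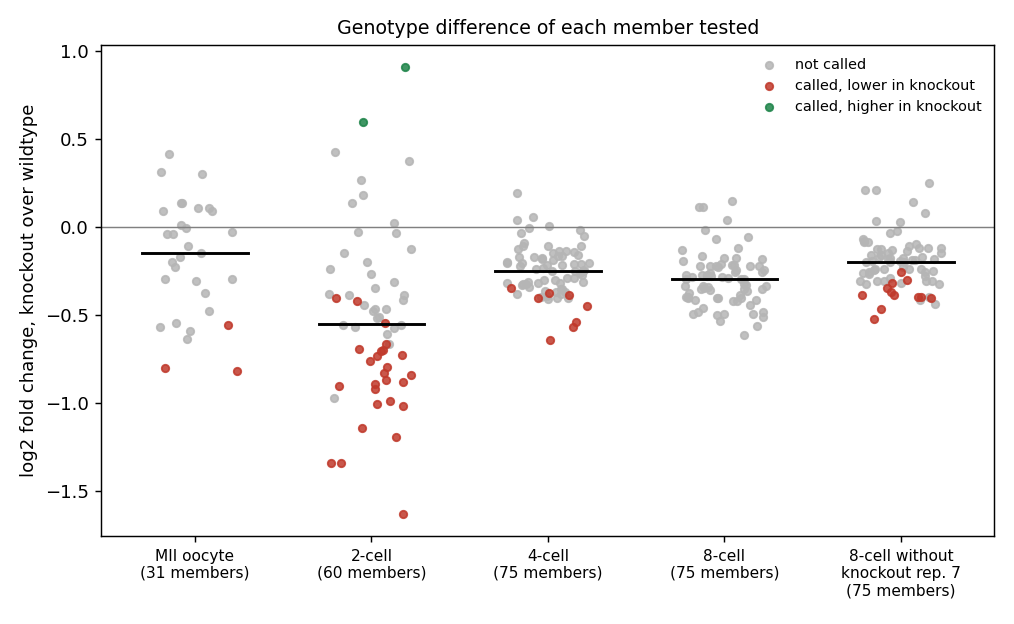
Log2 fold change (knockout over wildtype) of each member tested at each stage, and at the 8-cell stage also without knockout replicate 7. Bars are medians, at -0.15, -0.55, -0.25, -0.30 and -0.20, and colours mark members called lower or higher at an adjusted p under 0.05.

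Whether the genotype difference itself changed between stages was tested as an interaction. From oocyte to 2-cell embryo 3 of 64 members were called lower and 1 higher, against 2.05% and 2.06% of all genes. Of these 64, 31 pass the filter within oocytes by themselves. Rpl39 (-1.44, adjusted p = 0.020) and Rps24 (-0.74, 0.033) gained less in the knockout, and Rpl17 gained more (1.45, 4.1e-07). The other lower call, Rpl41 (-2.58), passed the filter only through its 2-cell level. It rests on 24 counts over the knockout and 11 over the wildtype oocytes, so its value is a description only. Without knockout MII replicate 15, 7 members were called, and the share of all genes called in that fit is not given here. From 2-cell to 4-cell embryo 12 of 75 members were called higher and 3 lower, against 11.4% and 4.16% of all genes, so the higher share lay near the background. Of these 75, 60 pass the filter within 2-cell embryos by themselves. Those with the smallest p among the higher were Rpl38 (1.21), Rpl39 (0.98, adjusted p = 0.010), Rps19 (1.37) and Rpl23 (0.86, adjusted p = 0.012). Rpl38 passed the filter only through its 4-cell level, so its value is a description only. Rps19 was near the floor, at 1.82 CPM in knockout and 6.34 CPM in wildtype 2-cell embryos, below Rpl38 in both. Whether Rps19 passed the filter within 2-cell embryos by itself was not counted, so its value is also a description only. Rpl38 averaged 1.85 CPM in knockout and 6.56 CPM in wildtype 2-cell embryos, and 205 and 320.2 CPM in 4-cell embryos. The 3 lower were Rpl17 (-1.20, adjusted p = 1.2e-06), Rps15a (-0.98, 2.0e-04) and Rps2, at the mRNA entry (-0.63, 0.037). Rpl17, higher in the knockout at the 2-cell stage, averaged 566 ± 96.4 CPM in knockout and 699.8 ± 136 CPM in wildtype 4-cell embryos. From 4-cell to 8-cell embryo 0 members were called by edgeR or DESeq2, with 0 at an unadjusted p under 0.05 in either, against 2.13% of all genes higher and 0.601% lower by edgeR. Rpsa (-0.31, adjusted p = 0.68) and Rpl9 (-0.32, 0.73) had the smallest p.

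Genes that work with the ribosome did not all follow the members. Of 40 genes for ribosome assembly and ribosomal RNA synthesis, 36 of 38 tested were called higher from 2-cell to 4-cell embryo in the wildtype, with a median of 2.69. Within 2-cell embryos by themselves 28 pass the filter, so some of the 38 entered through their 4-cell level, which favours a call of higher. How many of the 28 were called higher was not counted. Of all genes tested over that step, 31.3% were called higher and 43.4% lower. From oocyte to 2-cell embryo 13 of 32 assembly genes were called higher and 10 lower in the wildtype, against 31.3% and 20.1% of all genes tested. Of the assembly genes, 23 pass the filter within oocytes by themselves. The counts by genotype below are to be read against all genes tested, of which 6.69% were called lower and 5.27% higher in MII oocytes, 10% and 7.3% in 2-cell, 7.46% and 8.97% in 4-cell, and 2.76% and 8.69% in 8-cell embryos. The shares were 5.42% and 6.94% without knockout 8-cell replicate 7, and 9.79% and 9.8% without knockout MII replicate 15. Several of the counts lie near these shares. By genotype, 3 of 23 assembly genes were called lower and 0 higher in knockout MII oocytes, led by Taf1a (-0.54), and 1 of 38 lower in 8-cell embryos, Ubtf, a factor of RNA polymerase I (-0.90), which was also called without replicate 7 (-0.83), where 3 of 38 were lower. In between, 3 of 28 were called lower and 1 higher in knockout 2-cell embryos, led by Tsr1, a maturation factor of the small subunit (-0.85, adjusted p = 0.010), and 7 of 38 lower and 3 higher in 4-cell embryos, among them Utp4 (-0.54), Grwd1 (-0.61) and Wdr12 (0.63). Of 21 TOP mRNA genes that code for no ribosomal protein, 2 of 19 were called lower and 2 higher in knockout 2-cell embryos: Pabpc1, the poly(A)-binding protein, fell (-1.03, adjusted p = 0.011), while the elongation factor Eef1b2 (0.39) and the chaperonin Cct2 (0.47) rose. In the other comparisons by genotype 2 of 15 TOP genes were called lower and 1 higher in MII oocytes, 2 of 21 lower and 1 higher in 4-cell embryos, and 0 of 21 in 8-cell embryos, where 4 were called lower without replicate 7 (Eif3h, Eef1g, Eef1d and Eif3f, -0.59 to -0.37). The median of the 19 tested in 2-cell embryos was -0.04, against -0.55 for the 60 members. Of 15 genes for mTORC1 and TOP mRNA regulation, 1 of 7 was called higher in knockout MII oocytes (Rps6kb1, 0.24) and 1 of 8 lower in knockout 2-cell embryos (Cnbp, -0.35). In knockout 4-cell embryos Mlst8, an mTORC1 subunit, fell (-0.86, adjusted p = 0.0060), and Eif4ebp1, a translation repressor that mTORC1 phosphorylates, rose (1.29, adjusted p = 0.0013), as did Tial1 (0.63). In knockout 8-cell embryos, replicate 7 included, Tsc1, an inhibitor of mTORC1, was called higher (1.21) and Mlst8 lower (-1.12, adjusted p = 0.0020). These 15 genes took 0.0517% of counts in that library, against a median of 0.638% in the 15 knockout embryos. Without it Tsc1 (1.02, adjusted p = 0.041) and Mlst8 (-1.07, adjusted p = 9.0e-04) were still called, and Eif4ebp1 was called higher (0.90, adjusted p = 0.0078). Without knockout MII replicate 15, 4 of 23 assembly genes were called lower and 2 higher, 3 of 15 TOP genes lower and 0 higher, and 0 of 7 mTORC1 genes lower and 2 higher.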

How the data were processed

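Single MII oocytes and embryos were profiled as polyadenylated RNA. Per the submitters' processing notes, Trimmomatic 0.32, STAR 2.5.1a and featureCounts 1.5.1 were used with build mm10; the sources used here do not give parameters, strand setting or the treatment of reads with several locations. The deposited table's name gives GENCODE M18. Judged by their fractions, the deposited values are estimated counts: 30.6% of values above 0 are not whole, and for the members this was 12.8% to 96.9% of values (median 57.0), so reads are likely shared with other loci such as processed pseudogenes, which was not tested. The deposited table's gene length, from its other columns, was used only for levels per kilobase. The exons of 16 members overlap another gene's, 4 of them on the same strand.

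Counts were rounded (0.5 upwards), and libraries under 100000 counts were left out. CPM used the library total. Tests were edgeR 4.0.16 (R 4.3.3) quasi-likelihood fits with TMM factors, edgeR's filter on low counts by group, and Benjamini-Hochberg adjustment over all genes tested, at 0.05. Stage changes also needed 1 on the log2 scale. Log2 fold changes are knockout over wildtype or later over earlier stage, ± SE. DESeq2 1.42.0 and limma 3.58.1 served as alternatives, and the tests were tried on simulated counts. A member that passes the filter only through its higher group had to differ, so the 31, 60, 75 and 75 members tested by genotype at the MII, 2-cell, 4-cell and then 8-cell stage are not all members. The same holds between stages, so counts are also given for members that pass within the earlier stage alone, an alternative chosen after seeing the data, as were the fits of the other lists without a library.

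Members and gene lists were chosen with earlier results of these data known. Named were, in each genotype comparison, up to 8 called members each way with the smallest p (the 4 smallest if under 4 were called), up to 4 each way in each interaction (else 2), the 4 with the largest called changes each way at each wildtype stage step, the 3 highest and 3 lowest levels per kilobase, and members picked by role. Results for some members are not reported here. Libraries of the same replicate number did not pair: the mean correlation of their deviations was 0.024, -0.025, 0.025 and 0.022 at the 4 stages. No 2 libraries of a group held the same counts within sampling noise.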

Additional observations from a re-analysis of the deposited data

Results flagged for a closer look

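The interaction test (quasi-likelihood test of edgeR, Benjamini-Hochberg adjusted over all genes) flagged a changed genotype difference in 9 of the named members. Among these, Rpl41, Rpl38 and Rps19 are given as a description only, for the reason below. From oocyte to 2-cell embryo the difference on the log2 scale moved by -1.44 for Rpl39, -0.74 for Rps24, -2.58 for Rpl41 and 1.45 for Rpl17. From 2-cell to 4-cell embryo it moved by -1.20 for Rpl17, -0.98 for Rps15a, -0.63 for Rps2, 1.21 for Rpl38, 0.98 for Rpl39, 1.37 for Rps19 and 0.86 for Rpl23. Rpl41 from oocyte to 2-cell embryo and Rpl38 from 2-cell to 4-cell embryo passed the filter only through the later stage. For Rps19 from 2-cell to 4-cell embryo, passing within 2-cell embryos by itself was not counted. The values of Rpl41, Rpl38 and Rps19 at these steps are a description only. Rpl17 had the smallest p at both steps: it was lower in knockout oocytes (-0.56), higher in knockout 2-cell embryos (0.91) and uncalled in knockout 4-cell embryos (-0.30). Groups hold more than 10 libraries, so single values far from their group were not looked for by a formal rule.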

How the results depend on the processing

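Counts of members called by genotype moved by more than 1.5 times under these settings. In MII oocytes, 3 became 0 with a log2 fold change of at least 1 or in replicates 1 to 8, 1 with a stricter filter (10 CPM in 16 libraries) and 6 with limma voom quality weights. In 2-cell embryos, 28 became 7 with the fold threshold, 18 without a filter, in replicates 1 to 8 or with voom, 1 in replicates 9 to 16 and 3 with genes detected as a covariate, an alternative added after seeing the data. In 4-cell embryos, 8 became 0 with the fold threshold, in replicates 1 to 8 or in 1 fit of all 8 groups, 3 without a filter or in replicates 9 to 16, and 28 with voom. In 8-cell embryos, 0 became 16 with genes detected as a covariate, 12 with voom or without knockout replicate 7, and 1 in the fit of all groups. Interaction calls from oocyte to 2-cell embryo went to 2 without a filter, 1 in replicates 9 to 16 and 7 without knockout MII replicate 15. From 2-cell to 4-cell embryo 15 became 9 without a filter, 5 in replicates 1 to 8 and 1 in replicates 9 to 16. For the step from 4-cell to 8-cell embryo, wildtype calls went to 29 with no fold threshold, 1 with the stricter filter and 0 in replicates 1 to 8, and knockout calls to 18 with no fold threshold, 4 in replicates 9 to 16 and 3 without replicate 7. The cause was not tested. Apart from the 8-cell genotype fit without knockout replicate 7, shares of all genes called under these settings are not given, so these counts cannot be set against a background.

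Leaving out 1 replicate number at a time gave 3 to 4 calls in MII oocytes, 17 to 32 in 2-cell (fewest without number 4), 3 to 17 in 4-cell (fewest without 5, most without 6) and 0 to 9 in 8-cell embryos (most without 7). Knockout minus wildtype shares then ranged over -0.00702% to -0.00409%, -0.0451% to -0.0273%, -0.459% to -0.342% and -0.835% to -0.443%. With the replicate number as a block, 17 members were called in 2-cell embryos, but the numbers do not pair the libraries. RLE factors moved the median of all genes from oocyte to 2-cell embryo from 0.17 to 0.33 in the wildtype, and from 2-cell to 4-cell embryo from -0.43 to -0.76. The members' median stayed positive there, at 2.62 and 3.45. Over the named members, 828 alternative values kept direction and side of the threshold, 111 lost the call, 12 gained it and 1 reversed: the uncalled Rpsa interaction from 4-cell to 8-cell embryo, 0.038 in replicates 9 to 16. Depth limits the oocytes most: 844 to 3408 member counts a wildtype library, against 51388 to 160045 in 8-cell embryos.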

Other observations

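Some genes for ribosomal proteins fall outside the symbol rule, and 10 of the 11 looked for were in the table. Rps27l, a paralog of Rps27, was well detected in oocytes: it averaged 382 ± 145 CPM in knockout and 431 ± 54.7 CPM in wildtype MII oocytes (SD, n = 16 each), where Rps27 averaged 0.0990 ± 0.191 CPM and 0.338 ± 0.457 CPM. In 8-cell embryos Rps27l averaged 1283 ± 572 CPM in the knockout (n = 15) and 1203 ± 292 CPM in the wildtype (n = 16), and Rps27 438 ± 189.7 CPM and 606 ± 113 CPM. Rpl39l, a paralog of Rpl39 known from the male germ line, averaged 8.98 ± 4.30 CPM in knockout and 14.8 ± 4.26 CPM in wildtype oocytes and was called lower (-0.71 on the log2 scale, adjusted p = 0.018, edgeR's quasi-likelihood test). The counts that follow rest on few genes. Of all genes tested, 10% were called lower and 7.3% higher in knockout 2-cell embryos, and 7.46% and 8.97% in knockout 4-cell embryos. In knockout 2-cell embryos 3 of the 7 tested were called lower and 0 higher: Rpl36al (-1.41, adjusted p = 1.6e-04), Rpl22l1 (-1.23) and Rpl39l (-0.48). In knockout 4-cell embryos 3 of 9 were called lower: Rpl10l, a retrogene copy of Rpl10, at 52.1 ± 20.7 CPM in the knockout and 95.7 ± 14 CPM in the wildtype (-0.89, adjusted p = 2.3e-04), Rpl36al (-0.44) and Rps3a1 (-0.32). None of the 9 tested in 8-cell embryos was called by edgeR with knockout replicate 7 included, in which the paralogs took 0.0169% of counts, against a group median of 0.450%. Without it Rpl36al (-0.47, adjusted p = 0.017) and Rpl10l (-0.62, adjusted p = 0.039) were called lower, against 5.42% of all genes lower and 6.94% higher. The sharing of reads between Rpl10l and Rpl10 was not tested.

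Mitochondrial ribosomal protein genes were called by genotype at rates near those of all genes at most stages. In knockout MII oocytes 4 of 43 tested were lower and 3 higher (6.69% and 5.27% of all genes), in 2-cell embryos 6 of 52 lower and 5 higher (10% and 7.3%), in 4-cell embryos 10 of 73 lower and 2 higher (7.46% and 8.97%), and in 8-cell embryos 3 of 72 lower and 1 higher (2.76% and 8.69%). Without knockout 8-cell replicate 7, 7 of 73 were lower and 4 higher (5.42% and 6.94%), and without knockout MII replicate 15, 6 of 43 were lower and 4 higher (9.79% and 9.8%). Their share of counts in 2-cell embryos was 0.242% ± 0.0251 in the knockout and 0.242% ± 0.0122 in the wildtype (SD, n = 16 each). By smallest p, Mrpl9 (0.74), Mrps9 (0.61) and Mrpl1 (-0.60) led in oocytes, and Mrps30 (-1.33), Mrpl39 (1.40) and Mrps26 (-1.10) in 2-cell embryos, as log2 fold changes. Mrps25 was higher in knockout 4-cell (1.01) and 8-cell embryos (1.12), and Mrpl55 was lower at both stages (-1.02 and -0.92). Mrps12 (-1.07) in 4-cell and Mrpl17 (-0.64) in 8-cell embryos were the others among the leading 3. Without knockout replicate 7 the 8-cell values were 1.14 for Mrps25, -0.84 for Mrpl55 and -0.58 for Mrpl17, all called in the same direction.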
